A study of Mus musculus with 4 samples.

Results

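Cholesterol synthesis and its sterol control were described through 7 genes, 5 of which encode enzymes of the pathway (Hmgcs1, Idi1, Fdft1, Sqle and Msmo1) and 2 of which encode its regulators (Insig1 and Srebf2). They were chosen by symbol, and all 7 were among the 32285 genes of every library. The data were single-nucleus RNA counts of the mouse hippocampus, with 1 library for each of 4 groups: APPNL-G-F mice with exercise, APPNL-G-F mice without exercise, wild-type (WT) mice with exercise and WT mice without exercise. APPNL-G-F mice carry a knock-in in the endogenous App gene, so that mutant amyloid precursor protein is made under the gene's own promoter. All mice were female C57BL/6J, 8 weeks old at the start, and were housed for 10 weeks, with a wheel for voluntary running in the exercise groups. A running wheel appears in the treatment protocol of all 4 samples, but the titles and the treatment label give 2 of them as without exercise, and grouping was by title. The series also names an assay of open chromatin, not used here. The number of animals per library is not stated, and counts taken next to the polyadenylated end of a transcript do not read the knock-in mutations, so the genotype labels could not be checked.

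Animal cells make cholesterol from acetyl-CoA by way of mevalonate, isoprenoids and squalene. When sterols are scarce in the membrane of the endoplasmic reticulum, SCAP escorts the precursor of the transcription factor SREBP2 to the Golgi, where it is cut and its free part goes to the nucleus to switch on the genes of the pathway; when sterols are plentiful, INSIG proteins hold SCAP back. The brain makes nearly all of its own cholesterol, with astrocytes and the myelin-forming oligodendrocytes as main producers, and neurons take up part of what they need from astrocyte lipoproteins.

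Promoter sequences are shown for the 3 genes with the most bases of their upstream window outside the annotated gene (250 for Hmgcs1, 201 for Insig1 and 162 for Srebf2, against 145 for Idi1 and 36 for Msmo1), since SREBP2 acts through short elements in such windows. The sequences are RefSeq promoters on GRCm38.p6, cut off at the annotated gene start, and run 5′ to 3′ on the plus strand. Hmgcs1 is shown over chr13:119690101-119690350, Insig1 over chr5:28071162-28071362 and Srebf2 over chr15:82147019-82147180. Capitals mark the letters TCACNCCAC, their shorter form TCACNCCA, which lies within the longer one, and CCAAT, each on either strand.
Hmgcs1: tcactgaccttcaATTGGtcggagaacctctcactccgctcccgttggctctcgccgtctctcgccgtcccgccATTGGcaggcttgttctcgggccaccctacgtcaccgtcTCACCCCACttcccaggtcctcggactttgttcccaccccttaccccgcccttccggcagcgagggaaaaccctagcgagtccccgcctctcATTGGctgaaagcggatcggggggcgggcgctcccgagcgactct
Insig1: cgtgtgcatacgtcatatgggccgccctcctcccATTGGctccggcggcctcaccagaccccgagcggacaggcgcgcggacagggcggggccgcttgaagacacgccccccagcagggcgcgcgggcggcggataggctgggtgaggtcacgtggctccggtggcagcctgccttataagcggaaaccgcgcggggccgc
Srebf2: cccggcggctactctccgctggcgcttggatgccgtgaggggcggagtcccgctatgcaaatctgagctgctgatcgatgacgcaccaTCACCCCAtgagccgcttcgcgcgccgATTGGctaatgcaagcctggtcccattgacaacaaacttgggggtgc

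The Hmgcs1 window held TCACNCCAC at -137 to -129 from the RefSeq start; these letters are a common way of writing the sterol regulatory element that SREBPs bind. Of 32841 promoters of 250 bases, 346 (1.05%) held it on either strand. The shorter TCACNCCA stood in the windows of Hmgcs1, Msmo1 and Srebf2, against 1207 (3.68%) of all promoters. CCAAT, a box bound by NF-Y, was in the windows of Hmgcs1, Idi1, Msmo1, Insig1 and Srebf2, and in 33.9% of all promoters. GGGCGG, a box bound by Sp1, was in the same 5 windows and in 32.7% of all promoters, and CACGTG was in that of Insig1 and in 6.02% of all. All 250 bases of a window were searched, and every match in the windows of Idi1 and Msmo1 lay inside the annotated gene. Some GGGCGG matches of Srebf2 did so too. These are matches of letters and no test of binding. Sqle and Fdft1 were not searched.

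On GRCm38 the genes lie at chr13:119690379-119708260 (Hmgcs1, plus strand), chr13:8885501-8892451 (Idi1, plus), chr14:63145150-63179578 (Fdft1, minus), chr15:59315077-59331192 (Sqle, plus), chr8:64718139-64733792 (Msmo1, minus), chr5:28071363-28078662 (Insig1, plus) and chr15:82147181-82205379 (Srebf2, plus). Their spans run over exons and introns and range from 6951 bases for Idi1 to 58199 bases for Srebf2. Hmgcs1 overlaps the antisense gene Gm48342 over 6190 bases and Fdft1 overlaps Ctsb on the other strand over 774 bases. No source used here says whether the counting used strand, so counts of these pairs may be mixed.

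The deposited libraries held 9466 barcodes and 76111556 unique molecular identifiers (UMIs, each standing for 1 captured RNA molecule) for the knock-in with exercise, 10453 and 64158446 for the knock-in without exercise, 7203 and 66573909 for WT with exercise, and 11514 and 91676884 for WT without exercise. After filtering, 34744 nuclei formed 32 clusters, 26 of which were named by markers, and a class name below means that nuclei are like that type. Pairs of libraries shared 14 to 27 cell barcodes. The libraries stood apart within some classes: of the granule neurons, most in the knock-in with exercise (94.5%) were in cluster 14, most in the knock-in without exercise (60.5%) in cluster 7, and most in WT in cluster 5 (71.1% with exercise and 57.5% without). Oligodendrocytes were mostly in cluster 4 for the knock-in with exercise (97.1%), in cluster 28 (92.3%) when it had not exercised, and in cluster 3 for both WT libraries (89.4% with exercise and 88.1% without). CA1 neurons shared clusters 8 and 9 in all 4 libraries, plus cluster 20, led by mitochondrial genes, with 2.65% to 7.27% of them. Malat1, a nuclear long noncoding RNA, took 3.34%, 9.55%, 6.04% and 3.25% of the UMIs in the knock-in with and without exercise and in WT with and without exercise. Its part in the results below was not tested.

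Levels are given as UMIs of the gene per 1000000 UMIs of the class in a library (CPM). Ratios are log2 of CPM in one library over that in another, with a 95% interval that covers counting error only, for genes with at least 50 UMIs over both libraries; a log2 ratio of at least 0.5 in size is called past the fold below. With 1 library per group no difference had a replicate check and no test was made, and an interval away from 0 does not separate an effect of genotype or exercise from a difference between animals or library preparations. Each library also enters 2 comparisons, so that a high or low library moves both.

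All 7 genes had their highest mean level over the 4 libraries in astrocytes, and 6 of the 7 had their lowest in a neuron class, with Fdft1 lowest in oligodendrocyte precursors. Msmo1, the methylsterol monooxygenase that takes methyl groups off the sterol ring, had separate levels in its leading classes. It averaged 142 ± 68.5 CPM in astrocytes, 43.6 CPM in oligodendrocytes and 24.7 CPM in subicular and deep-layer neurons (means over 4 libraries, SD, n = 4), and the 4 libraries of each of these classes did not overlap those of the next. Its mean in granule neurons, at 10.4 CPM, was the lowest of the 9 classes. These means run over 4 different groups, so their spread holds group and library differences together.

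Hmgcs1, the cytosolic HMG-CoA synthase, stood at 86.0 CPM in astrocytes of the knock-in with exercise, 75.7 in the knock-in without exercise, 37.8 in WT with exercise and 60.1 in WT without exercise. In granule neurons the corresponding levels were 9.71, 10.5, 6.23 and 6.58 CPM. Every astrocyte value was above every granule value, and in the order of the 9 classes only CA1 and granule neurons were neighbours that did not overlap. Idi1, the isomerase that turns isopentenyl diphosphate into dimethylallyl diphosphate, was low in neurons, with means of 1.95 CPM in granule neurons against 24.2 CPM in astrocytes and 8.65 CPM in oligodendrocytes. Its astrocyte and oligodendrocyte values did not overlap.

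For Insig1, oligodendrocytes at a mean of 27.5 CPM came next to astrocytes at 32.7 CPM, and both were above subicular neurons at 8.63 CPM and CA1 neurons at 4.23 CPM. The libraries of oligodendrocytes and subicular neurons did not overlap for Insig1. Fdft1, squalene synthase, also stood high in oligodendrocytes, with 44.3 ± 2.09 CPM (mean ± SD, n = 4 libraries) against 18.7 CPM in granule neurons. Sqle, squalene epoxidase, averaged 25.1 CPM in astrocytes, 17.3 CPM in subicular neurons, 15.5 CPM in oligodendrocytes and 4.91 CPM in granule neurons. Srebf2, which encodes SREBP2, averaged 152 CPM in astrocytes, 116 CPM in oligodendrocytes, 93.8 CPM in subicular neurons and 47.2 CPM in granule neurons, and all neighbouring classes overlapped.

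The astrocyte levels rest on few UMIs. There were 111 and 64 astrocyte nuclei in the knock-in with and without exercise, against 344 and 340 in WT with and without exercise, so that Msmo1 levels of 107, 244, 96.9 and 120.2 CPM in that order stand on 45, 29, 82 and 108 UMIs. The knock-in without exercise was the highest of the 4 for Msmo1. Oligodendrocyte precursors and microglia were thinner still for most members. Srebf2 stood at 63.7, 58.4, 47.0 and 62.1 CPM in precursors, in the same order of libraries. Hmgcs1 stood at 17.3, 26.1, 20.1 and 24.4 CPM in microglia, within the range of the neurons.

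**Figure D1:**
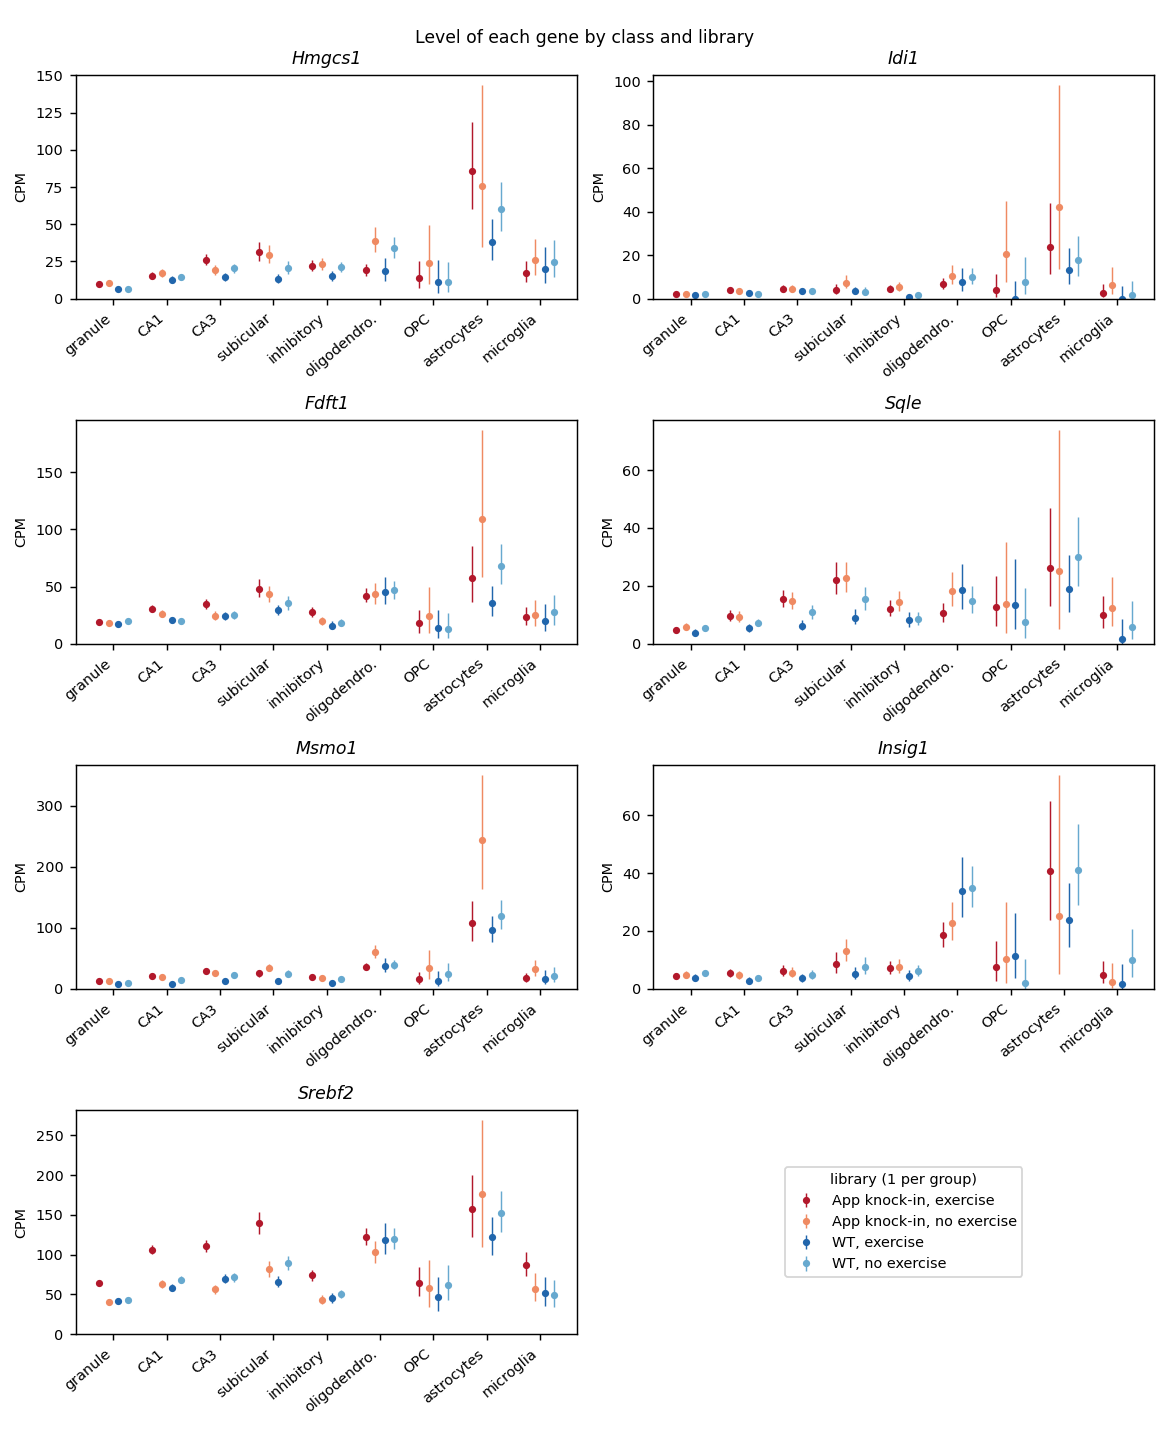
Level of each of the 7 genes (CPM, linear axes from 0) in 9 classes, with a point for each library and bars for the exact Poisson 95% interval, which covers counting error only (OPC, oligodendrocyte precursors). Astrocytes carry the highest mean of each gene and the widest intervals, and Srebf2 in neurons is highest in the knock-in with exercise.

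The first question of the design is how the knock-in differs from WT without exercise. Most values of the 7 genes were within the fold. Of 46 gene and class pairs with enough UMIs, 9 were higher and 1 lower past the fold in the knock-in, and the median log2 ratio was 0.22. Over all genes of the same classes 14.6% were higher and 15.7% lower past the fold. Hmgcs1 was among those higher, at 10.5 CPM in granule neurons of the knock-in without exercise against 6.58 CPM in WT without exercise (log2 ratio 0.67, 0.32 to 1.02). Srebf2 was lower in 7 of 9 classes, all within the fold. Of all genes, 52.8% (granule neurons) to 60.5% (astrocytes) were lower to any degree. Srebf2 was lower the most in CA3 neurons, with 56.3 CPM in the knock-in against 71.4 CPM in WT (log2 ratio -0.34, -0.53 to -0.16). The median log2 ratio of all genes there was -0.12.

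The second question is the same contrast in mice with exercise, and here the members were mostly higher in the knock-in. Of 45 pairs, 30 were higher and 2 lower past the fold (median log2 ratio 0.68), against 28.6% higher and 9.59% lower among all genes. In the 5 neuron classes all 33 pairs were higher in the knock-in to any degree. Of all genes, 29.7% (CA3 neurons) to 35.0% (granule neurons) were lower to any degree, so most were higher too. Past the fold 27 pairs were higher and 0 lower, against 29.0% higher and 8.48% lower among all genes in these classes. The median log2 ratio of all genes was itself 0.19 in granule neurons and 0.23 in CA1 neurons. Scaling by the trimmed mean of M-values (TMM) in place of the class total left 19 pairs past the fold and higher, and taking off the median of genes of like length left 15. Thinning to 1500 UMIs left 8 of the 17 pairs that still had 50 UMIs. The 30 stayed higher under TMM and the like-length adjustment, but the count depends on the scaling and the depth.

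The third question is what exercise changes in WT, and the fourth what it changes in the knock-in. In WT, 0 of 46 pairs were higher and 13 lower past the fold with exercise (median log2 ratio -0.38), against 4.40% and 13.9% of all genes. To any degree 42 of 46 were lower, where most genes were lower too, from 57.6% in oligodendrocyte precursors to 75.9% in CA1 neurons. Taking off the median of genes of like length left 8 of the 46 lower past the fold, and thinning nuclei to 1500 UMIs left 1 of the 17 pairs that still had 50 UMIs. In the knock-in the members split, with 8 higher and 7 lower past the fold of 47 (median log2 ratio 0.01), against 28.7% and 19.2% of all genes. Srebf2 made up 6 of those 8, and glial classes 6 of those 7.

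**Figure D2:**
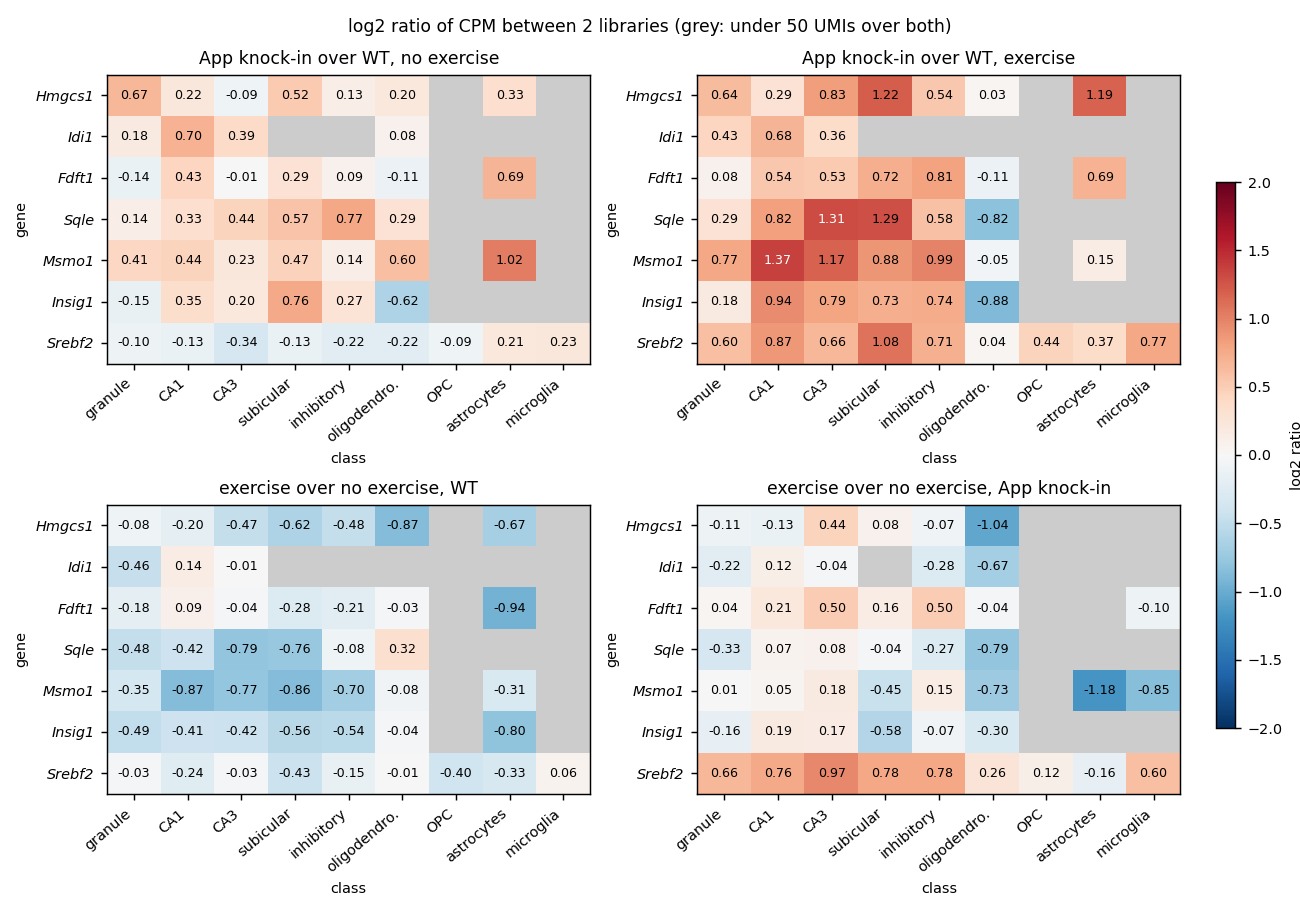
log2 ratio of CPM for each of the 7 genes (rows) in 9 classes (columns), with a panel for each comparison; colours end at -2 and 2, and grey marks pairs with under 50 UMIs over both libraries. The panel of knock-in over WT with exercise is positive for all 33 measured neuron values, where 29.7% to 35.0% of all genes in a neuron class are negative. The panel of exercise over no exercise in the knock-in is positive past the fold for Srebf2 in 5 of 5 neuron classes.

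Summed over the 7 genes, of which Srebf2 gave the most UMIs in neurons, CA1 neurons held 192 CPM in the knock-in with exercise, 144 in the knock-in without exercise, 110.4 in WT with exercise and 131 in WT without exercise. The log2 ratio of knock-in to WT was 0.80 with exercise and 0.14 without, and that of exercise to no exercise was 0.42 in the knock-in and -0.24 in WT. Granule neurons held 116, 94.3, 82.5 and 91.9 CPM, oligodendrocytes 255, 296, 281 and 299.7 CPM, and astrocytes 499, 698, 347 and 489.8 CPM, in the same order of libraries. The knock-in with exercise was the highest library in CA1 and granule neurons and the lowest in oligodendrocytes.

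The first enzymes of the pathway followed these patterns unevenly. Hmgcs1 in CA3 neurons stood at 25.9 CPM in the knock-in with exercise, 19.1 in the knock-in without exercise, 14.6 in WT with exercise and 20.2 in WT without exercise. In subicular and deep-layer neurons it stood at 31.2, 29.4, 13.4 and 20.6 CPM in the same order of libraries. WT with exercise was the lowest library for Hmgcs1 in 5 of 5 neuron classes, with a log2 ratio to WT without exercise of -0.08 in granule neurons. That order did not hold in every cluster. In CA1 cluster 9 Hmgcs1 stood at 9.22 CPM in WT with exercise against 9.01 CPM in WT without. In granule cluster 5 it stood at 6.59 against 6.47 CPM, and at 3.18 CPM in the knock-in with exercise, on 2 UMIs. The Hmgcs1 ratio of knock-in to WT with exercise was 0.83 (0.49 to 1.18) in CA3 neurons and 1.22 (0.76 to 1.68) in subicular neurons. In CA1 neurons it was 0.29 (-0.03 to 0.61) over the class. Within cluster 8 Hmgcs1 stood at 16.9 CPM in the knock-in with exercise against 11.8 CPM in WT with exercise (0.52), and within cluster 9 at 13.2 against 9.22 CPM (0.52). Cluster 20, led by mitochondrial genes, held 7 of the 184 Hmgcs1 UMIs of CA1 neurons in the knock-in with exercise and 36 of 147 in WT with exercise. Subicular values carry a limit: nuclei named so had 751 CPM of inhibitory and 635 CPM of granule neuron markers in the exercised knock-in, against 1452 and 1082 CPM in WT with exercise. Their own markers stood at 4758 CPM in the exercised knock-in, against 3239 CPM in WT with exercise. The part of this makeup in the subicular results was not tested.

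Idi1 had too few UMIs for most classes. In CA1 neurons it stood at 3.87 CPM in the knock-in with exercise, 3.56 in the knock-in without exercise, 2.41 in WT with exercise and 2.19 in WT without exercise. Both knock-in libraries were above both WT libraries, and the ratios of knock-in to WT were 0.68 (-0.03 to 1.41) with exercise and 0.70 (0.01 to 1.40) without. In inhibitory neurons Idi1 stood at 4.35 CPM in the knock-in with exercise, 5.27 in the knock-in without exercise, 0.785 in WT with exercise and 1.67 in WT without exercise, on 26, 28, 4 and 12 UMIs. Both knock-in libraries were again above both WT libraries, with too few UMIs for a ratio of knock-in to WT.

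The squalene steps differed from each other. Fdft1 in granule neurons was nearly level over the libraries, at 18.7, 18.2, 17.7 and 20.1 CPM in the knock-in with and without exercise and in WT with and without exercise. In CA1 neurons the same libraries held 30.5, 26.4, 20.9 and 19.6 CPM, so that both knock-in libraries were above both WT libraries. The CA1 ratio of knock-in to WT was 0.54 (0.31 to 0.79) with exercise and 0.43 (0.19 to 0.67) without exercise. In inhibitory neurons Fdft1 was high in the knock-in with exercise alone, with 27.8 CPM there, 19.6 in the knock-in without exercise, 15.9 in WT with exercise and 18.4 in WT without exercise. The ratio of exercise to no exercise in the knock-in was 0.50 (0.14 to 0.87) there and 0.50 (0.22 to 0.79) in CA3 neurons.

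Sqle, a control point of the pathway, was lowest in WT with exercise in 5 of 5 neuron classes. Not every cluster kept that order: in CA1 cluster 8 it stood at 7.49 CPM in WT with exercise against 6.35 CPM in WT without (log2 ratio 0.24), and in inhibitory cluster 10 at 6.84 against 6.18 CPM. In CA3 neurons it stood at 15.5 CPM in the knock-in with exercise, 14.6 in the knock-in without exercise, 6.23 in WT with exercise and 10.8 in WT without exercise. The knock-in was higher than WT with exercise by a log2 ratio of 1.31 (0.82 to 1.82), and the log2 ratio of exercise to no exercise in WT was -0.79 (-1.32 to -0.28). With each nucleus thinned to 1500 UMIs the sign of the first of these turned, to -0.31 (-2.65 to 1.90), on an interval too wide to read. In granule neurons Sqle stood at 4.66, 5.85, 3.82 and 5.32 CPM in the knock-in with and without exercise and in WT with and without exercise, and its ratio of knock-in to WT with exercise was 0.29 (-0.20 to 0.79).

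Msmo1 gave the highest ratio of knock-in to WT with exercise among the members, in CA1 neurons. Its CA1 levels were 20.9 CPM in the knock-in with exercise, 20.1 in the knock-in without exercise, 8.10 in WT with exercise and 14.8 in WT without exercise. WT with exercise was the low library, and the 2 knock-in libraries lay close together. The ratio of knock-in to WT was 1.37 (1.02 to 1.72) with exercise and 0.44 (0.17 to 0.71) without exercise. Exercise over no exercise gave 0.05 (-0.22 to 0.33) for the knock-in and -0.87 (-1.23 to -0.53) for WT. The difference between these exercise ratios, knock-in less WT, was 0.93 for CA1, 0.95 for CA3, 0.85 for inhibitory, 0.37 for granule and 0.41 for subicular neurons, and -0.65 for oligodendrocytes. It was not tested, since there is 1 library per group.

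The CA1 difference in Msmo1 was also seen within clusters that all 4 libraries share. In cluster 8 it stood at 23.0 CPM in the knock-in with exercise against 8.56 CPM in WT with exercise (log2 ratio 1.42), and in cluster 9 at 17.2 against 6.25 CPM (1.46). Compared with genes of like length, the class ratio was 1.04. Msmo1 was also past the fold and higher in the knock-in with exercise than in WT with exercise in CA3, subicular, inhibitory and granule neurons, with log2 ratios of 1.17, 0.88, 0.99 and 0.77. It was lowest in WT with exercise in 5 of 5 neuron classes.

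Insig1, which holds the SCAP and SREBP complex in the endoplasmic reticulum and is itself a target of SREBP, had the same low library in neurons as Hmgcs1, Sqle and Msmo1. In CA1 neurons its levels were 5.47, 4.81, 2.84 and 3.78 CPM in the knock-in with and without exercise and in WT with and without exercise. WT with exercise was again the lowest in 5 of 5 neuron classes. CA1 cluster 9 did not keep that order, with 1.97 CPM in WT with exercise against 1.48 CPM in WT without, on 12 and 10 UMIs. The CA1 ratio of knock-in to WT with exercise was 0.94 (0.32 to 1.59), and that of exercise to no exercise in WT was -0.41 (-1.06 to 0.22).

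Srebf2 was highest in the knock-in with exercise in 5 of 5 neuron classes, and Fdft1 and Msmo1 had that same high library in 4 of 5 each. The lowest library for Srebf2 was the knock-in without exercise in 3 neuron classes and WT with exercise in the other 2. In CA1 neurons it stood at 106 CPM in the knock-in with exercise, 62.7 in the knock-in without exercise, 58.0 in WT with exercise and 68.4 in WT without exercise. In CA3 neurons it stood at 110.1, 56.3, 69.7 and 71.4 CPM in the same order. Granule neurons held 63.6, 40.2, 42.1 and 43.1 CPM. In each of these classes the knock-in with exercise lay above the 3 other libraries, which did not keep 1 order among themselves.

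Exercise over no exercise in the knock-in gave Srebf2 ratios of 0.76 (0.62 to 0.90) in CA1, 0.97 (0.79 to 1.15) in CA3, 0.66 (0.52 to 0.81) in granule, 0.78 (0.55 to 1.0) in subicular and 0.78 (0.54 to 1.02) in inhibitory neurons. In WT the same ratios were -0.24, -0.03, -0.03, -0.43 and -0.15. Knock-in less WT, the exercise ratios differed by 0.70 in granule neurons to 1.21 in subicular neurons, a difference that was not tested. Within CA1 clusters 8 and 9 the ratio in the knock-in was 0.77 each. Within granule cluster 5 it was 0.35, within the fold, at 52.4 CPM with exercise against 41.1 CPM without, on 33 and 123 UMIs. Against genes of like length it was 0.54 in CA1 and 0.44 in granule neurons, the second of which is within the fold. Srebf2 has the longest span of the 7 genes, and in granule neurons the log2 ratios of all genes in this comparison were higher for longer genes (Spearman's rho 0.28 across genes, which are not independent replicates). The part of gene length in the result was not tested.

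**Figure D3:**
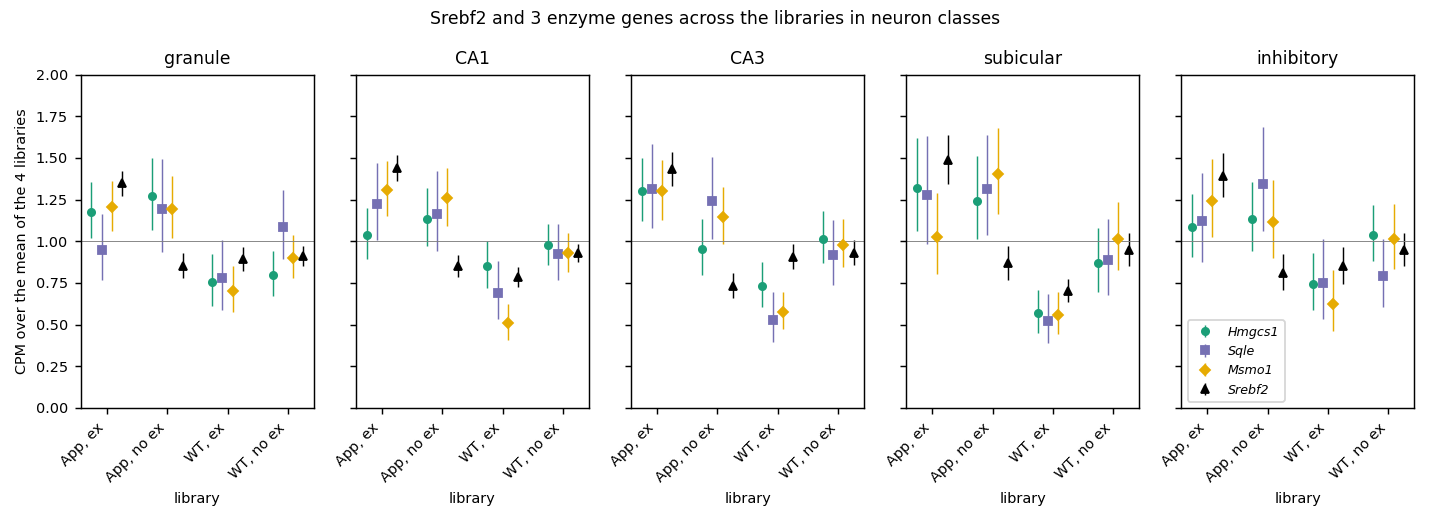
CPM of Srebf2, Hmgcs1, Sqle and Msmo1 over the mean of the 4 libraries, in 5 neuron classes; bars are exact Poisson 95% intervals for counting error only. Srebf2 stands highest in the knock-in with exercise in each panel, and Hmgcs1, Sqle and Msmo1 stand lowest in WT with exercise. The values are of whole classes, and not every cluster keeps this order for Hmgcs1 and Sqle.

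In glia the libraries had other orders. In oligodendrocytes Hmgcs1 stood at 18.9 CPM in the knock-in with exercise, 39.0 in the knock-in without exercise, 18.5 in WT with exercise and 33.9 in WT without exercise, so that both exercise libraries were below both others. The ratio of exercise to no exercise was -1.04 (-1.50 to -0.59) for the knock-in and -0.87 (-1.58 to -0.21) for WT. Msmo1 was highest in the knock-in without exercise, at 60.4 CPM, with 36.5 in the knock-in with exercise, 37.8 in WT with exercise and 39.9 in WT without exercise. Insig1 had another order, with 18.5 and 22.7 CPM in the knock-in with and without exercise, below 34.0 and 34.9 CPM in WT with and without exercise. Its ratio of knock-in to WT was -0.88 (-1.43 to -0.31) with exercise and -0.62 (-1.14 to -0.12) without, the reverse in sign of the CA1 values of 0.94 and 0.35. Sqle was also lower in the exercised knock-in, at 10.5 CPM against 18.5 CPM in WT with exercise (-0.82, -1.56 to -0.04). The Insig1 contrast without exercise did not hold in every cluster. Its ratio of knock-in to WT was -0.03 in CA1 cluster 8, on 26 and 40 UMIs. It was 1.41 in CA1 cluster 9, on 17 and 10 UMIs. In oligodendrocyte cluster 3 Insig1 stood at 37.2 CPM in the knock-in without exercise against 33.2 CPM in WT without exercise, on 8 and 83 UMIs.

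Fdft1 and Srebf2 were nearly level in oligodendrocytes. Fdft1 stood at 42.1, 43.1, 45.5 and 46.6 CPM and Srebf2 at 122, 103, 119 and 119.7 CPM, in the knock-in with and without exercise and in WT with and without exercise. The Srebf2 ratio of exercise to no exercise in the knock-in was 0.26 (0.03 to 0.49), within the fold. The oligodendrocyte results have 2 measured limits. The nuclei of the 2 knock-in libraries fell in different clusters, and the log2 ratios of all genes varied with gene span, with a Spearman's rho across genes of 0.58 when exercise was compared within the knock-in and -0.56 when the genotypes were compared without exercise. Taking off the median of genes of like length moved the ratio of exercise to no exercise in the knock-in to -0.81 for Hmgcs1, -0.53 for Msmo1, -0.59 for Sqle and -0.03 for Idi1. Granule neuron markers in this class stood at 3639, 3029, 4407 and 4073 CPM and the class's own markers at 12192, 16322, 14669 and 15083 CPM, in the same order of libraries. Their part in the results was not tested.

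In astrocytes Hmgcs1 was higher in the knock-in than in WT with exercise (log2 ratio 1.19, 0.46 to 1.92), but with nuclei thinned to 1500 UMIs the sign turned, to -0.86 (-2.86 to 0.71). Msmo1 was higher in the knock-in than in WT without exercise (1.02, 0.38 to 1.62). The Msmo1 ratio of exercise to no exercise in the knock-in was -1.18 (-1.89 to -0.46). Fdft1 stood at 57.3, 109, 35.4 and 67.9 CPM in the knock-in with and without exercise and in WT with and without exercise. The library with exercise was the lower one of each genotype for Fdft1. Its ratio of exercise to no exercise in WT was -0.94 (-1.62 to -0.29), on 30 and 61 UMIs. In microglia Srebf2 stood at 87.1 CPM in the knock-in with exercise, 57.2 in the knock-in without exercise, 51.1 in WT with exercise and 48.9 in WT without exercise, the same high library as in neurons. Microglia numbered 327 in the knock-in with exercise and had 3217 CPM of microglia markers, against 57 nuclei and 1246 CPM in WT with exercise, so the ratio of 0.77 (0.21 to 1.37) between those 2 libraries compares classes of unlike marker content. Inhibitory neuron markers stood at 2464 CPM in these microglia of the knock-in and at 2059 CPM in those of WT. The part of this in the result was not tested.

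Summed over all kept nuclei, Srebf2 stood at 90.2 CPM in the knock-in with exercise, 55.4 in the knock-in without exercise, 57.3 in WT with exercise and 62.9 in WT without exercise. Msmo1 stood at 21.1, 23.6, 12.9 and 17.9 CPM and Hmgcs1 at 17.9, 18.6, 13.4 and 15.8 CPM in the same order. In such a sum fewer cells of a type and less RNA per cell cannot be told apart. As in the neurons, Srebf2 was highest in the knock-in with exercise, and both enzymes were lowest in WT with exercise. Msmo1 was highest in the knock-in without exercise, whereas in 4 of 5 neuron classes it was highest in the knock-in with exercise.

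The other genes of sterol handling were read from a list of 36 genes that holds the remaining synthesis steps, the sensing proteins, lipoprotein uptake and cholesterol export. In CA1 neurons 19 of 32 measured list genes were higher and 1 lower past the fold in the knock-in than in WT with exercise, against 30.2% higher and 8.77% lower among all genes. Their median log2 ratio was 0.62, against 0.23 for all genes. Mvk, mevalonate kinase, stood at 8.33 CPM in the knock-in against 2.67 CPM in WT (log2 ratio 1.64, 1.05 to 2.27), and Nsdhl, which acts beside Msmo1 in removing the ring methyls, at 15.6 against 5.60 CPM (1.47, 1.06 to 1.91). Srebf1, which encodes SREBP1, Pmvk, phosphomevalonate kinase, and Dhcr7, the last reductase of the pathway, followed with log2 ratios of 1.41, 1.40 and 1.24.

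With exercise in WT, 28 of 33 list genes were lower to any degree in CA1 neurons, where 75.9% of all genes were lower too. Past the fold 0 were higher and 10 lower, against 2.11% and 13.9% of all genes. Their median log2 ratio was -0.24, against -0.17 for all genes. Ebp, a sterol isomerase, stood at 1.47 CPM with exercise against 3.37 CPM without (log2 ratio -1.20, -2.08 to -0.40). Exercise in the knock-in gave 19 higher and 6 lower of 33, against 29.5% and 19.0% of all genes. Lrp1, a lipoprotein receptor with a very large transcript, stood at 190.1 CPM with exercise against 73.6 CPM without (1.37, 1.25 to 1.49). In granule neurons 14 were higher and 1 lower of 34 in the knock-in over WT, both with exercise, against 26.2% and 10.1% of all genes. Mvk led there with 1.33 (0.75 to 1.95), and Cyp46a1, the neuronal enzyme that hydroxylates cholesterol for export, stood at 52.9 against 25.2 CPM (1.07, 0.90 to 1.24).

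Without exercise the knock-in had 3 higher and 5 lower list genes of 33 in CA1 neurons, against 12.2% and 15.8% of all genes. Nr1h2, a nuclear receptor for oxysterols, stood at 5.96 CPM in the knock-in against 11.2 CPM in WT (log2 ratio -0.91, -1.35 to -0.49), and Ggps1, which makes geranylgeranyl diphosphate, at 94.0 against 60.3 CPM (0.64, 0.51 to 0.77).

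In oligodendrocytes the list went both ways, with 6 higher and 9 lower of 30 for exercise in the knock-in, against 27.6% and 25.5% of all genes. Apoe, the lipid carrier made mainly by astrocytes and microglia, stood at 155 CPM with exercise against 788 CPM without (log2 ratio -2.35, -2.48 to -2.22), Npc2, a lysosomal cholesterol carrier, at 17.3 against 74.9 CPM (-2.11, -2.53 to -1.71), and Fdps, farnesyl diphosphate synthase, at 17.8 against 54.0 CPM (-1.60, -2.04 to -1.18). In astrocytes Apoe was lower with exercise in both genotypes, at 1731 against 5102 CPM in the knock-in (-1.56, -1.72 to -1.40) and at 1438 against 5141 CPM in WT (-1.84, -1.93 to -1.75). Apoe was also lower with exercise in WT oligodendrocytes, at 235 against 450 CPM (-0.94), and in granule neurons, at 28.4 against 56.2 CPM in the knock-in (-0.98) and at 34.9 against 51.6 CPM in WT (-0.56). The part of RNA from other cells in these Apoe values was not tested.

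**Figure D4:**
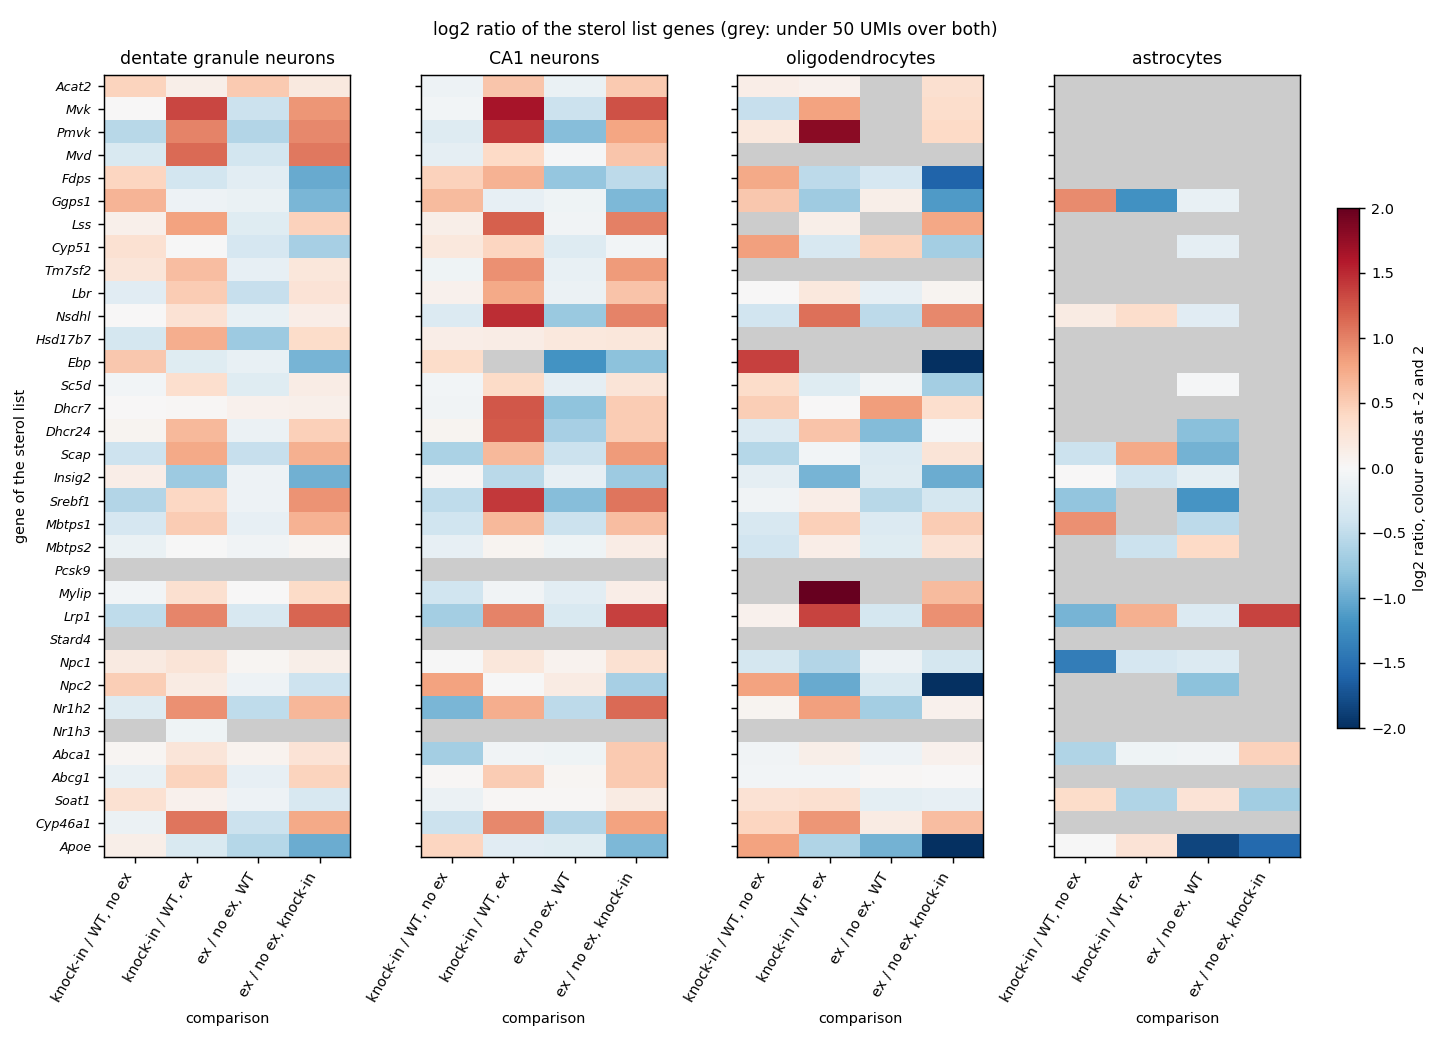
log2 ratio of CPM for genes of the sterol list (rows) in the 4 comparisons (columns), for granule neurons, CA1 neurons, oligodendrocytes and astrocytes; colours end at -2 and 2, and grey marks genes with under 50 UMIs over both libraries. In CA1 neurons Mvk, Nsdhl, Srebf1, Pmvk and Dhcr7 have log2 ratios of 1.24 to 1.64 for the knock-in over WT with exercise, and Apoe is lowest in oligodendrocytes for exercise in the knock-in, at -2.35.

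The genes most like each member were found by Pearson's correlation of log2(CPM + 1) over 28 values, 7 classes in 4 libraries. They were sought among 7073 genes of at least 20 CPM on average, so members below that could not be listed. The points share libraries and depth, and the values are a description. Msmo1 was the nearest gene to Hmgcs1 (r = 0.91) and to Idi1 (r = 0.96), and Hmgcs1 the nearest to Sqle (r = 0.91), followed by Cyp51 (r = 0.87), which removes a methyl group from lanosterol. Srebf2 was the nearest to Fdft1 (r = 0.92). The genes nearest to Srebf2 included Tspan9 (r = 0.93) and Fdft1 (r = 0.92). No member was among the 5 genes nearest to Insig1, which held Scd2, a fatty acid desaturase, and the astrocyte genes Hepacam and Kcnj10 (r = 0.94 each). After taking off each class's mean, r of Msmo1 was 0.72 with Hmgcs1 and 0.71 with Idi1. It was 0.70 for Hmgcs1 with Sqle and 0.67 for Srebf2 with Fdft1, and these pairs were no longer among the 5 nearest genes. Insig1 with Sqle then had r = 0.81, above r of Insig1 with every one of the 7073 genes (highest for Ddx55, 0.78). The genes then nearest to Srebf2 were the RNA-processing genes Srrm1 (r = 0.96) and Rbm25 (r = 0.95), and the nearest to Msmo1 was Hnrnpa2b1 (r = 0.94).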

How the data were processed

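Nuclei were profiled from 1 hippocampus library per group. The authors deposited raw UMI counts per gene and barcode, with no normalization. Cell Ranger 5.0.1 is named per the file headers, and Cell Ranger 3.1.0 and mm10 are named per the submitters' processing notes. Intron counting and strand are not given in the sources used here, so levels may hold unspliced RNA. Nuclei below 500 genes or 1000 UMIs, or with 5% or more mitochondrial UMIs, were dropped, the highest doublet scores (0.8% per 1000 nuclei) were left out, and Leiden clustering (scanpy 1.11.5; 2000 variable genes, 30 components, resolution 1) was run without integration. Kept nuclei numbered 8745 and 9278 (knock-in with and without exercise) and 6508 and 10213 (WT with and without exercise). Clusters were named from marker lists, and 13.4% of nuclei stayed unnamed. UMIs were summed per class and library; levels carry exact Poisson and ratios exact conditional binomial 95% intervals, for counting error only. TMM factors came from edgeR 4.0.16 in R 4.3.3. Coordinates are from GENCODE M21, matched for 32235 of 32285 identifiers. The ratio step was tested on simulated Poisson counts around 1 shared profile, with some genes changed by a log2 ratio of 1 in size. For granule neurons and the knock-in over WT with exercise, 99.0% of changed genes and 2.57% of unchanged genes passed the fold. The simulation held no difference between animals or library preparations, so these shares cover counting error only. In the real comparison 26.2% of all genes were higher and 10.1% lower past the fold.

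The rule names all 7 members in every class; the text gives part of their values and the plots the rest. List genes are named by the size of their log2 ratio (up to 6 per comparison in granule neurons, CA1 neurons, oligodendrocytes and astrocytes, with an interval that leaves out 0), and the text gives some of these. The 5 genes nearest to each member were computed, and the text gives some. Members, lists and markers were chosen with earlier results of these data known. The alternative that takes off the median of genes of like length, in 20 bins of gene span, was chosen after seeing the data. Some genes of the list are counted but not reported here by name.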

Additional observations from a re-analysis of the deposited data

How the results depend on the processing

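No paired analysis was possible because each group has 1 library. Of the 70 member ratios past the fold, 70 kept their direction under the 9 planned settings other than thinning and under the like-length adjustment (chosen after seeing the data), and 62 of the 68 that could be measured did so after thinning to 1500 UMIs per nucleus. Past the fold in the same direction stayed 54 with TMM, 56 with median-of-ratios scaling, 60 with a total without the top 50 and mitochondrial genes, 59 with no doublets left out and 44 with the like-length adjustment. Thinning turned the sign of 6: Sqle in CA3 neurons (-0.31), Insig1 in subicular neurons (-0.25) and Hmgcs1 in astrocytes (-0.86) for the knock-in over WT with exercise, Hmgcs1 in subicular neurons (0.17) and astrocytes (0.20) for exercise in WT, and Msmo1 in microglia (0.36) for exercise in the knock-in. The log2 ratio of the summed 7 genes in granule neurons, 0.49 for the knock-in over WT with exercise, became 0.31 with TMM, 0.32 with median-of-ratios and 0.38 without the top genes; exercise in WT (-0.16) became -0.044 with median-of-ratios, and exercise in the knock-in (0.29) became 0.16 without the top genes. In CA1 neurons the knock-in over WT without exercise (0.14) became 0.25 without the top genes; with exercise (0.80) it became 0.57 with TMM, 0.58 with median-of-ratios, 0.68 without the top genes and 0.90 with pathway genes taken out of the clustering. Exercise in WT (-0.24) became -0.10 with TMM, -0.072 with median-of-ratios and -0.13 thinned, and exercise in the knock-in (0.42) became 0.30, 0.32 and, without the top genes, 0.26. Exercise in the knock-in in oligodendrocytes (-0.21) became -0.41 without the top genes. With no doublets left out, the astrocyte sums became 0.90 for the knock-in over WT with exercise (0.52) and 0.093 for exercise in the knock-in (-0.48). Counts of members past the fold moved as follows. For the knock-in over WT without exercise, 9 higher became 14 without the top genes and 5 thinned, and 1 lower became 0 without the top genes, with at least 1000 genes or with at least 1200 UMIs. With exercise, 30 higher became 19 with TMM, 8 thinned and 15 with the like-length adjustment, and 2 lower became 1 thinned. For exercise in WT, 13 lower became 1 thinned and 8 with like length. In the knock-in, 8 higher became 5 without the top genes and 4 with like length, and 7 lower became 4 thinned. Over the 36 list genes and 9 classes, the knock-in over WT without exercise had 31 higher (47 without the top genes, 17 thinned, 6 at a fold of 1, 11 at 200 UMIs) and 31 lower (16, 17, 3 and 14 in that order). With exercise it had 111 higher (37 thinned, 51 at a fold of 1, 52 at 200 UMIs) and 14 lower (9, 2 and 8). Exercise in WT had 3 higher (6 with TMM, 7 with median-of-ratios, 5 with pathway genes taken out, 8 with like length, 0 at a fold of 1, 1 at 200 UMIs) and 62 lower (41 with median-of-ratios, 21 thinned, 34 with like length, 8 at a fold of 1, 24 at 200 UMIs). Exercise in the knock-in had 84 higher (31 thinned, 30 at a fold of 1, 42 at 200 UMIs) and 42 lower (13 at a fold of 1, 25 at 200 UMIs). Among all genes of the 9 classes, 14.6% were higher and 15.7% lower past the fold in the knock-in over WT without exercise. With exercise the shares were 28.6% and 9.59%. For exercise they were 4.40% and 13.9% in WT and 28.7% and 19.2% in the knock-in. A class had 4 to 34 of the 36 list genes measured, so the counts alone do not set the list apart from all genes. Levels moved by more than their counting interval in 127 of 252 cases without the top genes, in 89 of 252 thinned and in 13 or fewer under each other setting. The cause of these moves was not tested, beyond the fewer UMIs that thinning and the higher minimum leave. Depth limits the astrocyte values: in simulated data 7.56% to 24.7% of unchanged genes passed the fold there by counting error alone.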
